A study of Mus musculus with 2 samples.

Results

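Mitochondrial ribosomal proteins are the nuclear-encoded protein subunits of the ribosome that works inside mitochondria, and their genes carry the symbols Mrpl (large subunit) and Mrps (small subunit). Every row of the deposited expression tables whose gene symbol was Mrpl or Mrps followed by a number and at most 1 letter was taken, which gave 77 genes of the 24411 gene symbols in the tables, 48 for the large and 29 for the small subunit. These genes were represented by 95 of the 35034 transcript rows, 56 large and 39 small, and 68 of the 77 genes had a single row. Membership followed from the symbol alone, and no measured value enters that rule, although the family was picked for description with earlier results of these data known.

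The values came from RNA-seq of dorsal root ganglia (DRG) sensory neurons of C57BL/6 mice (C57BL/6J in the study's methods). Each of the 2 libraries pooled the DRG neurons of 10 mice aged 6 to 8 weeks, 1 library for the alum-injected group and 1 for the group immunized with alum + KLH. Injections into the peritoneum were given on days 0 and 14 and held 50% alum (an adjuvant made of aluminium salts) in a volume of 200 µl for both groups. The immunized group also received 100 µg of keyhole limpet hemocyanin (KLH), a foreign protein antigen, and DRG were taken 14 days after the second injection. Thoracic and lumbar ganglia were digested, enriched for neurons over a layer of albumin and depleted of B lymphocytes, so what was sequenced was an enriched mixture and not pure neurons. The label of the control library calls it both naïve and alum alone, and it is taken here as alum-injected. Each group was 1 library, so no difference between the pools has a replicate check or a test, and the spread between mice is unknown. In such bulk libraries fewer cells of a type and less RNA per cell cannot be told apart.

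The mitochondrial ribosome translates the few proteins that mitochondrial DNA encodes, all of them membrane subunits of the respiratory chain and the ATP synthase. Its ribosomal RNAs come from mitochondrial DNA, whereas every one of its proteins is made in the cytosol and imported. Part of the proteins descend from those of the bacterial ribosome and the others were added during the evolution of mitochondria. Sensory neurons hold mitochondria along very long axons and depend on their ATP production.

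Levels are in TPM, a unit that corrects the reads of every transcript for transcript length and sums to 1000000 in each library, so different genes are compared per length. TPM was summed over the transcript rows of a gene. The study's methods give a minimum depth per library, but the files hold no counts, so the number of reads behind each value is unknown. A gene above 3 TPM in at least 1 pool was called detected, and 11648 genes of the tables were. Differences between the pools are log2 ratios, alum + KLH over alum, after adding 1 TPM to both values, which understates the change of low genes. All 11 pan-neuronal markers were detected, at a median level of 961.8 and 905.0 TPM in the alum and alum + KLH pools. All 8 satellite glia markers (median 152.1 and 120.9 TPM) and 9 of 11 Schwann cell markers (54.7 and 42.2 TPM) were detected as well, against 2 of 10 macrophage and 1 of 6 erythroid markers. The part that glial RNA had in the values of the family was not tested.

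Nearly every mitochondrial ribosomal protein gene was expressed. In total 75 of the 77 were above 3 TPM, and the same 75 were so in both pools, 46 of 48 for the large and 29 of 29 for the small subunit. All 77 were above 1 TPM in both pools. Above 10 TPM there were 68 genes in the alum pool and 63 in the alum + KLH pool, and all 63 were among the 68. Mrpl12, Mrpl23, Mrpl28, Mrpl34 and Mrps24 passed this limit in the alum pool only. They lay near it, at 10.4 to 13.2 TPM in the alum pool and 8.16 to 8.98 TPM in the alum + KLH pool. The share of all genes above 10 TPM in each pool was not computed, so these counts have no background. The 2 genes below 3 TPM were Mrpl4, at 2.05 TPM in the alum pool and 1.90 TPM in the alum + KLH pool, and Mrpl38, at 2.18 and 2.41 TPM. Both encode large subunit proteins, L4 being of the bacterial type and L38 specific to mitochondria.

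**Figure D1:**
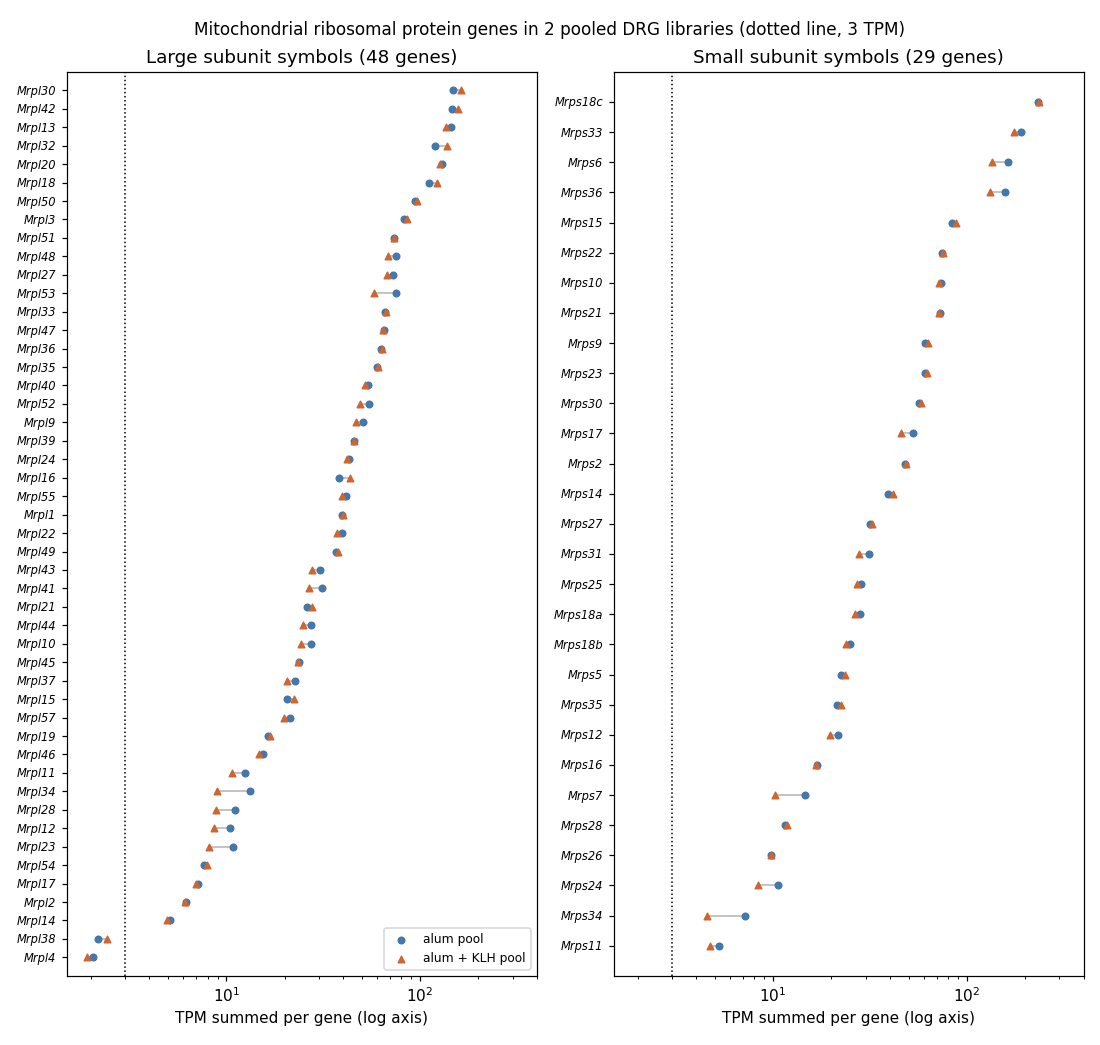
TPM summed per gene (log axis) of the 48 large subunit and 29 small subunit genes in the alum pool (circles) and the alum + KLH pool (triangles), ordered by their mean, 1 library per pool. Mrps18c is highest, Mrpl4 and Mrpl38 lie below the dotted line at 3 TPM, and for most genes both points nearly coincide.

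Together the 77 genes accounted for 0.397% of all TPM in the alum pool and 0.387% in the alum + KLH pool. The median detected large subunit gene was at 39.5 and 39.8 TPM and the median small subunit gene at 31.5 and 32.3 TPM, against 24.2 and 23.5 TPM over all detected genes. The middle of the family was narrow. Its lower and upper quartiles of mean TPM were 20.6 and 68.1, a 3.31-fold span, where those of all detected genes were 8.59 and 69.1, an 8.05-fold span. The extremes were nonetheless far apart, with a 118.6-fold distance from the lowest to the highest of the 77 genes.

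The highest member was Mrps18c, at 232.8 TPM in the alum pool and 236.3 TPM in the alum + KLH pool. Vertebrates have 3 versions of the bacterial protein S18, and the other 2 were far lower: Mrps18b, placed elsewhere in the small subunit, was at 24.9 and 23.6 TPM, and Mrps18a at 28.1 and 26.3 TPM. Structures of the mammalian particle place the Mrps18a product in the large subunit despite its symbol, and the same holds for Mrps30, which was at 56.6 and 57.8 TPM. The next small subunit genes were Mrps33 at 189.8 and 175.9 TPM, Mrps6 at 162.5 and 135.0 TPM and Mrps36 at 156.8 and 131.3 TPM. Mrps33 is a mitochondria-specific subunit and Mrps6 the homolog of bacterial S6. The Mrps36 product is now known as a component of the 2-oxoglutarate dehydrogenase complex and is absent from structures of the ribosome, so 1 of the 4 highest small subunit symbols does not name a ribosomal subunit.

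The large subunit had no single gene far above the rest. Mrpl30 was at 147.0 TPM in the alum pool and 163.2 TPM in the alum + KLH pool, Mrpl42 at 146.8 and 156.9 TPM, Mrpl13 at 144.7 and 135.6 TPM and Mrpl32 at 118.9 and 137.1 TPM. L13, L30 and L32 are bacterial-type proteins, and L42 is specific to mitochondria. In the alum pool Mrpl30, Mrpl42 and Mrpl13 lay closer to each other than each lay to its own value in the other pool, so their order there is not resolved. At the low end, after Mrpl4 and Mrpl38, came Mrpl14 at 5.14 and 4.94 TPM and Mrpl2 at 6.22 and 6.09 TPM. L2 is among the proteins closest to the catalytic centre of bacterial ribosomes. The lowest small subunit genes were Mrps11 at 5.27 and 4.72 TPM, Mrps34 at 7.15 and 4.53 TPM, Mrps24 at 10.6 and 8.39 TPM and Mrps26 at 9.75 and 9.69 TPM.

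Genes of bacterial ancestry had the higher median in both subunits, by little in the large and by more in the small subunit. Their lower quartile was below that of the mitochondria-specific genes in both, so they were not higher throughout. The 29 detected large subunit genes of bacterial type had a median of 39.5 TPM in the alum pool and 40.1 TPM in the alum + KLH pool, and the 19 mitochondria-specific ones, with Mrps30 and Mrps18a counted here, 37.0 and 37.5 TPM. In the small subunit the 16 bacterial-type genes were at a median of 43.6 and 43.7 TPM, and the 10 mitochondria-specific genes at 29.8 and 27.3 TPM. The lower quartile of mean TPM in the large subunit was 11.6 for bacterial-type and 24.75 for mitochondria-specific genes. In the small subunit it was 15.5 and 22.4. The L7/L12 stalk is the arm of the large subunit that recruits translation factors. It was represented by Mrpl12, at 10.4 and 8.62 TPM, and its base by Mrpl10 and Mrpl11. Mrpl10 was at 27.5 and 24.2 TPM and Mrpl11 at 12.4 and 10.7 TPM. In bacteria this protein is the one that stands in several copies on each ribosome, and its transcript was below the lower quartile of the family.

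Some members near the exit of the protein tunnel, where new chains meet the inner membrane, differed in level. Mrpl22 was at 39.5 TPM in the alum pool and 37.2 TPM in the alum + KLH pool, Mrpl24 at 42.8 and 41.7 TPM, and Mrpl45, which anchors the ribosome at the membrane, at 23.6 and 23.5 TPM, while Mrpl17 was at 7.11 and 6.96 TPM. Several members are known as disease genes in which loss of function impairs the respiratory chain. Of these, Mrpl3 was at 82.8 and 85.1 TPM, Mrps22 at 74.5 and 75.1 TPM, Mrpl44 at 27.2 and 24.8 TPM and Mrps16 at 16.7 and 16.6 TPM. Mrps34 and Mrps7, also known as such genes, were lower and are described with the differences between the pools. The genes of this paragraph were picked after their values were seen, so neither set stands for all members of its kind.

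Base composition and level went together. Across the 74 detected members with an annotated transcript, the GC content of the highest transcript and log2 mean TPM had Pearson's r = -0.48 and Spearman's rho = -0.44, a correlation across genes, which are not independent replicates. Over the 11420 detected genes with a GC value the same r was -0.32. Both genes below 3 TPM were GC-rich, Mrpl4 at 60.1% and Mrpl38 at 59.6%, against a median of 50.01% over the detected members. Transcript length and level had rho = -0.11 across the 74 genes.

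The family was close to equal in the 2 pools. The median log2 ratio was -0.04 over the 46 large subunit genes and -0.03 over the 29 small subunit genes, against -0.02 over all detected genes. The quartiles of the 75 members were -0.13 and 0.03, and those of all genes -0.12 and 0.06. Of the 75 members, 28 had a ratio above 0 and 47 below, and 67 (89.3%) lay within 1.2-fold, as did 88.4% of all detected genes. Log2 TPM in 1 pool and in the other had r = 0.994 across the members. No member was 2-fold apart in either direction, where 0.695% of the 11648 detected genes were higher in the alum + KLH pool by that much and 0.944% lower.

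**Figure D2:**
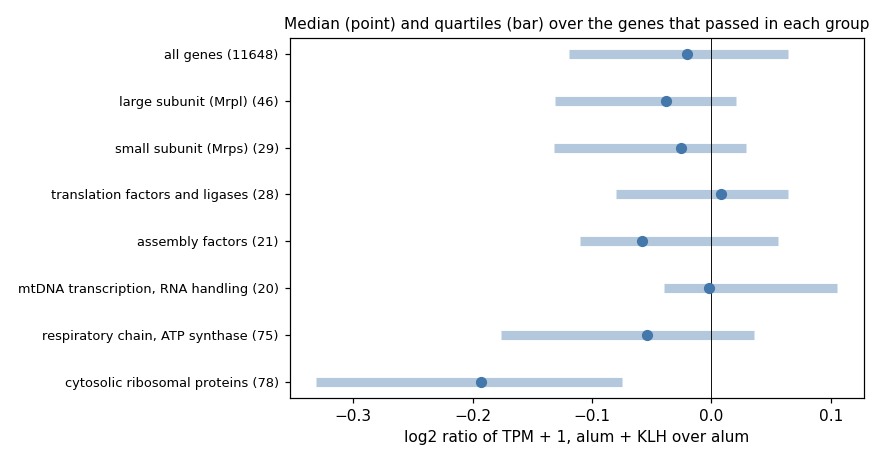
Log2 ratio of TPM + 1, alum + KLH over alum (horizontal axis), as the median (point) and the quartiles (bar) over the detected genes of each group, with the number of genes in brackets. Both subunits have medians of -0.04 and -0.03, near all genes at -0.02, and cytosolic ribosomal proteins lie lowest at -0.19.

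No mitochondrial ribosomal protein gene was 1.2-fold or more higher in the alum + KLH pool, a limit that 3.2% of all detected genes passed. Mrpl32 came nearest, at 118.9 TPM in the alum pool and 137.1 TPM in the alum + KLH pool, a log2 ratio of 0.20. Mrpl16, a bacterial-type protein, was at 37.99 and 43.6 TPM (0.19), and Mrpl30 at 147.0 and 163.2 TPM (0.15). The highest ratios of the small subunit were smaller, at 0.08 for Mrps14 (39.1 and 41.5 TPM) and 0.07 for both Mrps35 (21.3 and 22.3 TPM) and Mrps15 (84.2 and 88.3 TPM).

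Of the 75 members 8, or 10.7%, were at least 1.2-fold lower in the alum + KLH pool, where the share over all detected genes was 8.41%. They were divided evenly, with 4 of each subunit. The lowest ratio was that of Mrps34, a mitochondria-specific small subunit protein, at 7.15 TPM in the alum pool and 4.53 TPM in the alum + KLH pool (log2 ratio -0.56). Mrpl34, the small basic L34, was at 13.2 and 8.98 TPM (-0.51), and Mrps7, which in bacteria starts the assembly of the head of the small subunit, at 14.5 and 10.2 TPM (-0.47). All 3 were low in level, so that few TPM separate the pools.

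The other 5 had ratios between -0.37 and -0.27. Mrpl53, specific to mitochondria, was at 74.9 and 57.6 TPM (-0.37), and Mrpl23, which lines the exit of the tunnel for the new protein chain, at 10.9 and 8.16 TPM (-0.37). Mrps24 was at 10.6 and 8.39 TPM (-0.30), Mrpl28 at 11.1 and 8.89 TPM (-0.30) and Mrps6 at 162.5 and 135.0 TPM (-0.27). Of the 8, only Mrps6 and Mrpl53 were above 20 TPM. Mrpl28 and Mrps6 were singled out as parts of this count, after their values were seen. The stalk genes did not reach 1.2-fold, with ratios of -0.18 for Mrpl10, -0.20 for Mrpl11 and -0.25 for Mrpl12.

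All 8 lower genes were GC-rich. Their transcripts held 53.9% to 60.6% G and C, a range in which 20 detected members lay at or above its lower end. GC content and log2 ratio had r = -0.51 and rho = -0.46 across the 74 members, and r = -0.20 and rho = -0.47 across all 11420 detected genes with a GC value. When the detected genes were split into 6 equal classes by GC content, the class of highest GC (55.0% to 69.9%) had a median ratio of -0.16 and 27.3% of its genes were 1.2-fold lower. It held 15 members, with a median ratio of -0.14 and 6 of the 8 lower genes. The next class (51.6% to 55.0%) held 13 members and the other 2 lower genes, and 9.56% of all its genes were lower. None of the 46 members in the 4 classes of lower GC was 1.2-fold apart.

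Subtracting the median ratio of genes of like GC, in 20 equal classes, left 4 of 74 members at least 1.2-fold lower and 0 higher, where 3.97% of all genes were lower and 4.05% higher. The 4 were Mrps34 at -0.35, Mrps7 at -0.33, Mrpl34 at -0.30 and Mrpl53 at -0.30. The median over the small subunit genes was then 0.01 and that over the large subunit genes -0.01, so the sign of the small subunit median turned with this correction. Over all genes it changed the split from 373 higher and 980 lower to 462 higher and 453 lower. Whether a difference in library preparation or in the cells gave the relation with GC content was not tested.

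**Figure D3:**
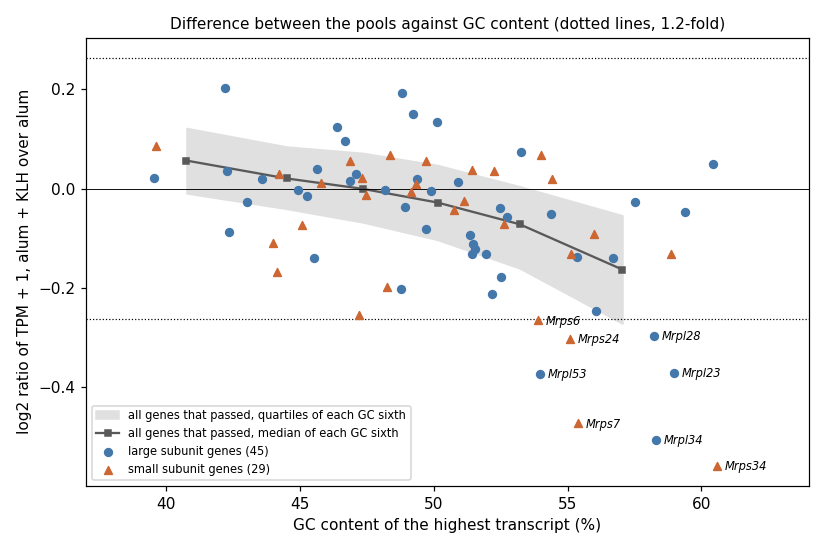
GC content of the highest transcript of each gene (%) against the log2 ratio of TPM + 1, alum + KLH over alum, for 45 large subunit (circles) and 29 small subunit genes (triangles), over the median (line) and quartiles (band) of all detected genes in 6 classes of GC content. The 8 named genes below the lower dotted line (1.2-fold) all lie at 53.9% GC or above, where the median of all genes also lies below 0.

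Some members share sequence with other genes, and kallisto divides reads among transcripts that could have produced them. For 23 of 76 members over 5% of the stretches of 31 bases of the highest transcript also occur, in either orientation, in GENCODE transcripts of other genes, and 36 members share none. GENCODE transcripts of every type were searched. The authors quantified RefSeq transcripts, so these shares need not be those that kallisto met. Mrps34 shares 55.6% of them with Mapk8ip3, which overlaps it on the opposite strand, Mrps7 shares 11.4%, mainly with its neighbours Gga3 and Mif4gd, and Mrps6 shares 15.8% with Slc5a3, which lies on the same strand. The largest share was that of Mrps25, 74.6% with Nr2c2. Among the members whose levels are given above, Mrpl24 shares 45.0% with Rrnad1, Mrpl13 25.1% with Mtbp and Mrps11 14.1% with Mrpl46. The libraries were stranded, but whether strand was used in the quantification is not given in the sources used here. The values of these genes, and of the other members with shared sequence, are therefore less certain than those of members without it. For Mrps6 strand cannot separate the shared stretches because Slc5a3 lies on the same strand. Leaving the 23 genes out kept 52 detected members, of which 5 were 1.2-fold lower and 0 higher. Mrpl34, Mrpl53, Mrpl23 and Mrpl28 share no such stretch with another gene.

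Proteins of the mitochondrial ribosome that carry other symbols gave a similar range. Ptcd3, a small subunit protein with RNA-binding repeats, was at 109.9 TPM in the alum pool and 110.3 TPM in the alum + KLH pool, and Dap3, a GTP-binding small subunit protein, at 28.2 and 29.1 TPM. Ict1, a hydrolase built into the large subunit that rescues stalled ribosomes, was at 23.1 and 21.5 TPM, and Gadd45gip1, another large subunit protein, was below 3 TPM at 2.59 and 2.12 TPM. Chchd1, a small subunit protein, was at 124.6 and 164.4 TPM (log2 ratio 0.40), and Aurkaip1, also of the small subunit, at 21.8 and 17.9 TPM (-0.27, and -0.13 after centring on genes of like GC). So of these 6 genes 5 were detected, 1 was at least 1.2-fold higher and 1 lower. Mrpl57, a member by its symbol, was at 21.2 and 19.9 TPM.

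The genes that serve the mitochondrial ribosome were also near equal as groups, with 1 exception among the single genes. Of 32 translation factors and mitochondrial tRNA ligases 28 were detected, with a median log2 ratio of 0.01, 0 higher and 2 lower by 1.2-fold. Lars2, the mitochondrial leucyl-tRNA synthetase, was at 389.9 TPM in the alum pool and 74.97 TPM in the alum + KLH pool (-2.36). Sequence shared with other genes was counted for members only, so whether shared sequence enters the value of Lars2 was not examined. Lars2 was the only gene of the lists of factors 2-fold apart, and the other lower gene was Tsfm, an elongation factor (11.1 and 8.90 TPM). Of 26 assembly factors 21 were detected, with a median of -0.06, 0 higher and 3 lower (Mettl17, Clpp and Rpusd4, all below 10 TPM). Of 22 genes for transcription of mitochondrial DNA and handling of its RNA 20 were detected, with a median of -0.00, 0 higher and 1 lower (Polg, the mitochondrial DNA polymerase). Lower by 1.2-fold were thus 7.14% of the detected translation factors and ligases, 14.3% of the assembly factors and 5.0% of these 20 genes. Over all detected genes 8.41% were lower and 3.2% higher. Tsfm, Mettl17, Clpp, Rpusd4, Lars2 and Polg were named for these counts after their values were seen.

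The cytosolic ribosome and the respiratory chain gave the nearest comparison. Of 82 cytosolic ribosomal protein genes 78 were detected, at a median of 146.0 TPM in the alum pool and 125.2 TPM in the alum + KLH pool, and their median log2 ratio was -0.19. Of these, 24 (30.8%) were at least 1.2-fold lower and 1 higher, where 8 and 0 of the 75 mitochondrial ribosomal protein genes were. Over all detected genes 8.41% were lower and 3.2% higher. After centring on genes of like GC the median of the cytosolic proteins was -0.12 and that of the mitochondrial ones -0.00. Of 85 nuclear genes for subunits of the respiratory chain and the ATP synthase 75 were detected, at a median of 199.99 and 195.7 TPM, with a median ratio of -0.05, 2 higher and 12 lower (16.0%). With 1 library in each group no test of these differences between gene groups was made.

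Single transcript rows moved more than gene totals in a few members. Over all rows detected, 1.86% were 2-fold or more higher in the alum + KLH pool and 2.79% were lower by as much. Of the 81 detected member rows 1 was higher and 1 lower, and both belong to Mrps10, a bacterial-type small subunit gene on chromosome 17. Its total was 73.7 TPM in the alum pool and 71.5 TPM in the alum + KLH pool. The row NM_001146211 was at 73.7 and 15.1 TPM and the row NM_001146212 at 0.059 and 56.4 TPM, so the share of the second row went from 0.0795% to 78.8% while the gene total stayed within 1.2-fold. The remaining row of the gene was listed at 0 in both pools.

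Both Mrps10 transcripts have 7 exons in the GENCODE annotation of GRCm38, the assembly of mm10, on the plus strand. Within the coding sequence they part at the start of exon 3, at chr17:47372576-47372645 in the first and chr17:47372573-47372645 in the second, whose coding sequence is thereby 603 rather than 600 bases long. The join of exons 2 and 3 is shown for both, since it carries this difference, with the 3 extra bases of the second transcript in capitals.
NM_001146211: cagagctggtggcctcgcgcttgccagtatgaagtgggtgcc
NM_001146212: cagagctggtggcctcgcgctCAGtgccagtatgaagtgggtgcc

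Such a pair of acceptor sites 3 bases apart adds or removes 1 amino acid. In the first transcript 34 of its 987 stretches of 31 bases (3.45%) do not occur in the second. In the second transcript 35 of 988 (3.54%) do not occur in the first. Most of these stretches span the join, and a few lie at the outer ends, which also differ in GENCODE. The first transcript spans chr17:47368887-47378679 and the second chr17:47368891-47378681. These ends need not be those of the RefSeq transcripts that were quantified. The percentages are shares of stretches and not of reads. A read that holds at least 1 of these stretches can tell the 2 GENCODE transcripts apart. How many reads did so is not known from TPM values.

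**Figure D4:**
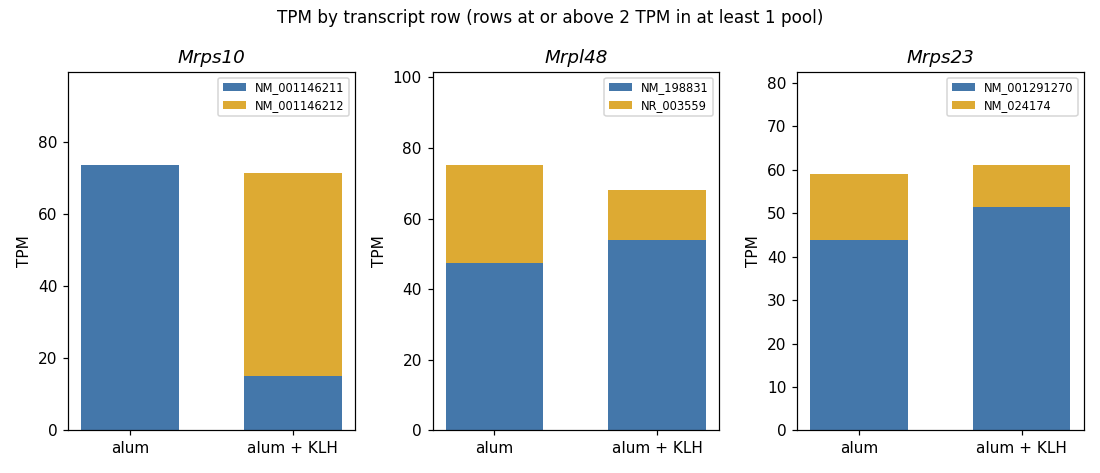
TPM in the alum and the alum + KLH pool, 1 library each, by transcript row (colours) for Mrps10, Mrpl48 and Mrps23; rows below 2 TPM in both pools are not drawn. The bars of each gene are nearly the same height in both pools, and in Mrps10 the row NM_001146212 takes 78.8% of the second bar and almost nothing of the first.

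Altogether 9 members had more than 1 row, and in 3 of them the share of a row differed by over 10 percentage points between the pools, where this held for 22.5% of the 3506 detected genes with more than 1 row. Besides Mrps10 these were Mrpl48 and Mrps23. Mrpl48, specific to mitochondria, had its coding row at 47.5 and 53.9 TPM and a noncoding row at 27.8 and 14.2 TPM, with a total of 75.2 and 68.2 TPM. Mrps23 had 1 row at 43.9 and 51.4 TPM and another at 15.1 and 9.71 TPM, both linked to the same GENCODE transcript, with a total of 60.6 and 62.2 TPM. In Mrpl55, with 5 rows, the noncoding row NR_126101 held 39.9 and 37.3 TPM of a total of 41.4 and 39.5 TPM, so almost all of this gene's level was assigned to a transcript annotated as noncoding; it was named for this after its values were seen.

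Promoters of the family were read from RefSeq (GRCm38.p6), where 67 of the 77 genes had a window from 250 bases before to 50 after the start site. In all, 7 short motifs were searched on both strands, each without regard to overlap with another. NRF1, a factor known for nuclear genes of mitochondrial function, was searched as GCGCANGCG, ETS factors (among them GABPA, also called NRF2) as CCGGAAG and YY1 as AAGATGGC. The NRF1 motif was in 23.9% of member windows, 14.6% of the windows of detected genes and 9.01% of all 16760 windows. The ETS motif was in 35.8%, 18.4% and 12.1%, and the YY1 motif in 17.9%, 4.92% and 3.35%. At least 1 of these 3 motifs was in 42 member windows (62.7%), against 33.1% of detected genes and 21.6% of all.

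The other motifs did not follow this order. The SP1 motif GGGCGG was in 47.8% of member windows, 65.3% of those of detected genes and 47.5% of all. The NF-Y motif CCAAT was in 40.3%, 38.4% and 38.4%, the E-box CACGTG in 7.46%, 9.99% and 8.15%, and the TATA motif TATAAA in 5.97%, 7.22% and 12.7%. A match is a run of letters and not a measured binding site.

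**Figure D5:**
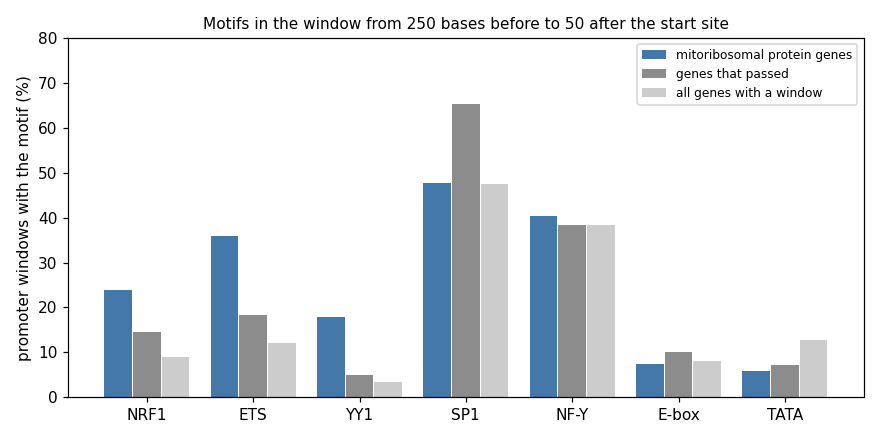
Share of promoter windows (%) with each of 7 motifs on either strand, for 67 mitochondrial ribosomal protein genes, the detected genes and all genes with a window. The bars of the members are the highest of the 3 for NRF1, ETS and YY1, and lower than those of the detected genes for SP1.

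The sites below are examples from members described above, 3 with NRF1 and 3 with ETS letters, picked after their values were seen, with the motif in capitals, reading along the strand of the gene. A motif found on the other strand appears as its reverse complement. The NRF1 matches of Mrpl32 (chr13:14613106-14613134, minus strand), Mrpl30 (chr1:37890365-37890393, plus strand) and Mrpl12 (chr11:120484547-120484575, plus strand) begin at positions -87, -102 and -80 relative to the start site of the RefSeq window. The ETS matches of Mrps18c (chr5:100798593-100798619, plus strand), Mrpl53 (chr6:83109039-83109065, plus strand) and Mrpl34 (chr8:71464879-71464905, plus strand) begin at -156, -59 and -37 by the same count. The start of the GENCODE transcript can differ from that of the window. In GENCODE Mrpl32 starts at chr13:14613165 and Mrpl53 at chr6:83109040, so the matches of these genes lie downstream of those starts.
Mrpl32: tttgacccttGCGCATGCGcaagaggggc
Mrpl30: cttccaggaaGCGCACGCGtgacgccgct
Mrpl12: attgtctccgCGCCTGCGCgtcgcaccgc
Mrps18c: ggtcacgtgaCTTCCGGcccgggaagc
Mrpl53: cgcggagccgCCGGAAGcggtccgttc
Mrpl34: actacagctcCCGGAAGgccccgcggc

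NRF1 letters thus stood both in Mrpl32, with the highest ratio of the family, and in Mrpl12, at -0.25, and ETS letters both in Mrps18c, with the highest level, and in Mrpl34. The match of Mrpl32 and the base after it form a palindrome, read as NRF1 on both strands. The 3 NRF1 matches counted in the window of this gene include that stretch on each strand. The promoters of Mrpl16, Mrpl23 and Mrpl28 held none of the NRF1, ETS and YY1 letters.

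The YY1 motif contains the letters of a start codon. In 8 member windows (11.9%) it read along the gene and lay after the start site of the window, against 2.33% of detected genes and 1.4% of all windows. In 6 of the 8 its ATG is the annotated start codon. Among them are Mrps7 (chr11:115604148-115604175, plus strand) and Mrps24 (chr11:5707652-5707675, minus strand), both 1.2-fold lower in the alum + KLH pool, and Mrps27, Mrps18a, Mrpl35 and Mrpl49, which were not.
Mrps7: gacagcggccAAGATGGCtgcccccgcg
Mrps24: gcgccggcccAAGATGGCgtggtc

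Many members start close to a gene read in the other direction. For 24 of 76 members (31.6%) another protein-coding gene starts on the opposite strand within 1000 bases upstream. Among the quantified genes linked to a protein-coding gene of GENCODE, this held for 12.7% of those detected and 8.84% of all 20245. The starts are those of GENCODE transcripts and not those of the promoter windows. In 1 pair both are members: Mrpl46 and Mrps11 start 30 bases apart, and their levels were 15.4 and 14.7 TPM for Mrpl46 and 5.27 and 4.72 TPM for Mrps11. The starts of Mrpl18 and Tcp1, a subunit of the cytosolic chaperonin, lie 37 bases apart, with Tcp1 at 475.8 and 460.3 TPM and Mrpl18 at 111.3 and 122.2 TPM. Mrpl32 and Psma2, a proteasome subunit at 437.9 and 420.2 TPM, start 75 bases apart.

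Some of these neighbours were far apart in level and others close. Mrps18c at 232.8 and 236.3 TPM starts 29 bases from Helq, a DNA helicase at 4.01 and 3.58 TPM. Mrps12, whose bacterial homolog takes part in decoding, was at 21.5 and 19.6 TPM and starts 182 bases from Sars2, the mitochondrial seryl-tRNA synthetase, at 0.478 and 0.821 TPM. Mrps34 starts 29 bases from Eme2, a DNA repair gene at 4.41 and 4.70 TPM, and Mrps7 32 bases from Gga3 at 19.7 and 17.8 TPM. Neither of these neighbours of a lower member was 1.2-fold lower itself. Mrpl49 was at 37.0 and 37.5 TPM and starts 59 bases from Fau, which encodes a ubiquitin-like protein fused to cytosolic ribosomal protein S30, at 41.5 and 29.9 TPM.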

How the data were processed

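Each library came from 1 pool of 10 mice, grouped by its title. The authors trimmed reads with cutadapt and quantified them with kallisto (versions not given in the sources used here) against annotated RefSeq transcripts of mm10; the deposited values are TPM per transcript, without counts. TPM was summed per gene symbol. Genes above 3 TPM in at least 1 pool entered ratios, with a pseudocount of 1 TPM, and calls were set at 1.2-fold and 2-fold. With 1 library per group no test was run. Transcript length, GC content, shared stretches and positions came from GENCODE M21 (GRCm38), linked by RefSeq identifier for 94 of 95 member rows. Named were the 4 highest and 4 lowest genes of each subunit, the 3 highest and 3 lowest ratios of each, genes with a transcript share shifted by over 10 points or a row 2-fold apart, the S18, Mrps30, Mrps36 and stalk genes, and ribosomal proteins with other symbols. Members and lists were chosen with earlier results of these data known. Alternatives were pseudocounts of 0.1 and 0.5 TPM, other filters, single transcripts, median scaling, removal of short noncoding rows and subunits by structure. Centring on GC and leaving out shared sequence were added after seeing the data. Calculations used Python 3.11.15, numpy 2.4.6, pandas 2.3.3 and matplotlib 3.10.9. Only the log2 ratio without a pseudocount and the 2-fold call were tested on simulated data.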

Additional observations from a re-analysis of the deposited data

How the results depend on the processing

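Of 108 alternative values of the group medians and counts, 101 stayed within the limits set for a move (0.1 in log2, 10% of a level, 1.5-fold of a count), and 7 did not. Part of the 101 could not move. Pseudocounts do not enter levels or counts above 3 TPM, and filters do not enter those counts. The limit of 0.1 is also larger than the median ratios, so a median that changed sign could count as unmoved. Above 10 TPM the median small subunit gene was at 43.6 TPM in the alum pool and 43.7 TPM in the alum + KLH pool. With the highest transcript of each gene, or with every transcript counted on its own, it was at 27.6 TPM in the alum + KLH pool. Counting every transcript gave 1 higher member, a transcript of Mrps10, and 12 lower. Centring on genes of like GC gave 4 lower members and leaving out genes with shared sequence 5; otherwise the count lay between 7 and 12. The median ratio ranged from -0.05 to -0.01 for the large and from -0.07 to 0.01 for the small subunit. It was above 0 only with centring on GC. Of 356 alternative ratios of single named genes 15 moved by over 0.1, 12 of them with GC centring, which put Mrpl14 at 0.16, Mrpl2 at 0.15, Mrps18a at 0.05 and Ict1 at 0.02, all below 0 without it. Other filters and leaving out genes with shared sequence keep the ratio of a retained gene as it was, so under them no ratio could move. The highest transcript alone gave -2.21 for Mrps10, 0.22 for Mrps23 (0.04 with all transcripts) and 0.18 for Mrpl48, whose total had -0.14. No paired analysis was possible because each group was 1 library. The number of libraries limits every comparison: differences of the size seen here cannot be told apart from differences between pools of mice or between library preparations.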
